A study of Rattus norvegicus with 6 samples.

Results

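The 10 genes described here belong to the amino acid arm of the integrated stress response: Atf4, Asns, Chac1, Trib3, Ddit3, Psat1, Phgdh, Shmt2, Slc7a11 and Aars. They were chosen by name, with earlier results of these data known. Each was found on 1 row, so that 10 of the 13843 features of the deposited table are described. Values are in FPKM, the number of fragments of a transcript divided by its length and by the size of the library. All 10 passed the filter on low values, which asked for 1 FPKM or more on average across libraries and which 10359 features passed.

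RNA was sequenced from cultures of neonatal rat ventricular myocytes, primary muscle cells of the newborn rat heart, in 6 libraries that form 3 groups of 2. One group was given phenylephrine (PE) and TSA together with a hairpin that targets JIP1 (PE+TSA+shJIP1). Another was given the same 2 agents with a control hairpin (PE+TSA), and the last the control hairpin and PE without TSA (PE). Every culture was thus exposed to PE, an alpha-1 adrenergic agonist used to make cultured cardiomyocytes grow, and to a hairpin, and treatment lasted 3 days. TSA usually stands for trichostatin A, a histone deacetylase inhibitor, although the labels leave it unexplained. JIP1, the product of Mapk8ip1, is a scaffold of the JNK kinase cascade. The labels call the JIP1 treatment a knockout in one field and a short hairpin in another, and the hairpin reading is used. They do not tell whether libraries of a group are separate cultures, so the tests measure the spread between libraries, which may be technical.

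ATF4 is a transcription factor whose protein is made mainly when phosphorylated eIF2 alpha slows general translation, because upstream reading frames in its messenger RNA then let ribosomes reach the main one. Its level is therefore controlled at translation as well as at the RNA measured here. With C/EBP partners it binds composite C/EBP-ATF response elements (CARE) near genes for amino acid synthesis, uptake and tRNA charging, and near feedback and death genes such as Trib3, Chac1 and Ddit3.

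The 250 bases before the annotated start of each member were searched on both strands for the 8-base core of that element, TGATGNAA, where N is any base. All 10 members were matched in the RefSeq promoter table of build GRCr8, 9 by current symbol and Aars by its older symbol (now Aars1). That build differs from the one named for the expression values, so these positions belong to GRCr8 alone. The core was present in 3 of 10 members, Chac1, Trib3 and Aars, and in 3.4% of all 33469 promoters of the table (1139). The longer ER stress element was in none of the 10 and in 0.0657% of all promoters. The 3 promoters with the core are printed because they show where it lies, and that of Shmt2 because its RNA differed most between groups. Each is written 5′ to 3′ with any match in capitals, and all 3 matches are on the strand opposite to the gene. The match in Chac1 (chr3:126795881-126796130 on the plus strand) begins 167 bases before the start, that in Trib3 (chr3:161275534-161275783 on the minus strand) 21 bases and that in Aars (chr19:55908232-55908481 on the plus strand) 112 bases. The Shmt2 sequence (chr7:65249568-65249817 on the minus strand) holds no match, which says only that these letters are not in this window.
Chac1: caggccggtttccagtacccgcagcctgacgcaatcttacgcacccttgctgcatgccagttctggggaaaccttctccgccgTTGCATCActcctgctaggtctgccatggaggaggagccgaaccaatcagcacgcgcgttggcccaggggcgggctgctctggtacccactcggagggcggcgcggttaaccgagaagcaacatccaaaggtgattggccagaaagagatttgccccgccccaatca
Trib3: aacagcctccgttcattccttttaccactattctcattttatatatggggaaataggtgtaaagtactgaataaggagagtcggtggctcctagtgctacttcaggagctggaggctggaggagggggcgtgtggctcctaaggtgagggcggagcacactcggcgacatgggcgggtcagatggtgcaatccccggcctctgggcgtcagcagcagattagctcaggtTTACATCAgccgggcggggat
Aars: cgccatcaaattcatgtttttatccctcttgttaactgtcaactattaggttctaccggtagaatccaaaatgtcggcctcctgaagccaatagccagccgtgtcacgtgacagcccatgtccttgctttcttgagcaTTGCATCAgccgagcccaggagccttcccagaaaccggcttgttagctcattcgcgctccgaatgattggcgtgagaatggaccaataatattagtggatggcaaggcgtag
Shmt2: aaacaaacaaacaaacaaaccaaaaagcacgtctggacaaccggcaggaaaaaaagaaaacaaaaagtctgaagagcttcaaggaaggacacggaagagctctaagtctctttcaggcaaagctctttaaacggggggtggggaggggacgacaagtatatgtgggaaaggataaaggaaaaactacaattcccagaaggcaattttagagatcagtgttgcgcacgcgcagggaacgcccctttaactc

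The libraries appeared to be of unequal depth. Relative depth was estimated from the most frequent ratio of low FPKM values, on the assumption that these lie at whole-read steps. It put PE replicate 2 at 0.048 of the depth of PE replicate 1 (20.8 times shallower) and the other 4 libraries at 0.722 to 1.34 of it. That ratio was shared by 29 features in PE replicate 2 and by 21 to 48 in the other 4. Low meant below 6 FPKM in PE replicate 2 and below 0.3 FPKM elsewhere, a choice on which the estimate may depend. PE replicate 2 listed 3667 features at 0, against 1407 to 1837 in the other 5. Total reads per library are unknown, so no counting intervals are given. Mapk8ip1, the gene targeted by the hairpin, was at 1.80 and 3.65 FPKM in PE+TSA+shJIP1, 14.6 and 17.9 FPKM in PE+TSA, and 3.77 and 4.39 FPKM in PE. Its log2 change with the hairpin was -2.25 ± 0.34 (SE; limma adjusted p = 0.077). The summed level of 5 cardiomyocyte markers was 2388 to 5194 FPKM in PE+TSA+shJIP1, 2639 to 5402 FPKM in PE+TSA, against 7327 to 8749 FPKM in PE. That of 5 fibroblast markers was 493 to 604, 450 to 667 and 923 to 1451 FPKM, and that of 4 smooth muscle and pericyte markers 382 to 429, 195 to 326 and 1185 to 1476 FPKM in the same groups. In every group the cardiomyocyte sum and the smooth muscle and pericyte sum were higher in replicate 1, and the fibroblast sum in replicate 2. The sums of 4 endothelial markers (7.71 to 37.1 FPKM) and 4 macrophage markers (5.15 to 16 FPKM) were low in every library, and no marker was at 0 throughout. The part of these shifts in the results below was not tested, and in bulk RNA fewer cells of a type and less RNA per cell cannot be told apart.

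Levels can be compared between genes because FPKM is scaled to length. Atf4 was the most abundant member in every group, at 178 ± 54.9 FPKM in PE+TSA+shJIP1, 175 ± 2.74 FPKM in PE+TSA, against 229 ± 6.13 FPKM in PE (mean ± SD, n = 2 each). Slc7a11 was the least abundant, at 1.20 ± 0.00284, 1.07 ± 0.70 and 4.19 ± 0.34 FPKM in the same groups. Its 4.43 FPKM in PE replicate 2, the shallow library, may rest on few reads, so its small SD in PE is uncertain. In PE the order from the top was Atf4, Aars, Shmt2, Ddit3, Asns, Phgdh, Chac1, Trib3, Psat1 and Slc7a11. Values of the neighbours Aars and Shmt2, Asns and Phgdh, Chac1 and Trib3, and Trib3 and Psat1 overlapped. So did those of Aars and Ddit3, and of Chac1 and Psat1, which are not neighbours in this order. In PE+TSA+shJIP1 Shmt2 stood at place 8 (13.1 FPKM), and in PE+TSA at place 7 (18.7 FPKM), beside Psat1 (18.9 FPKM).

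**Figure D1:**
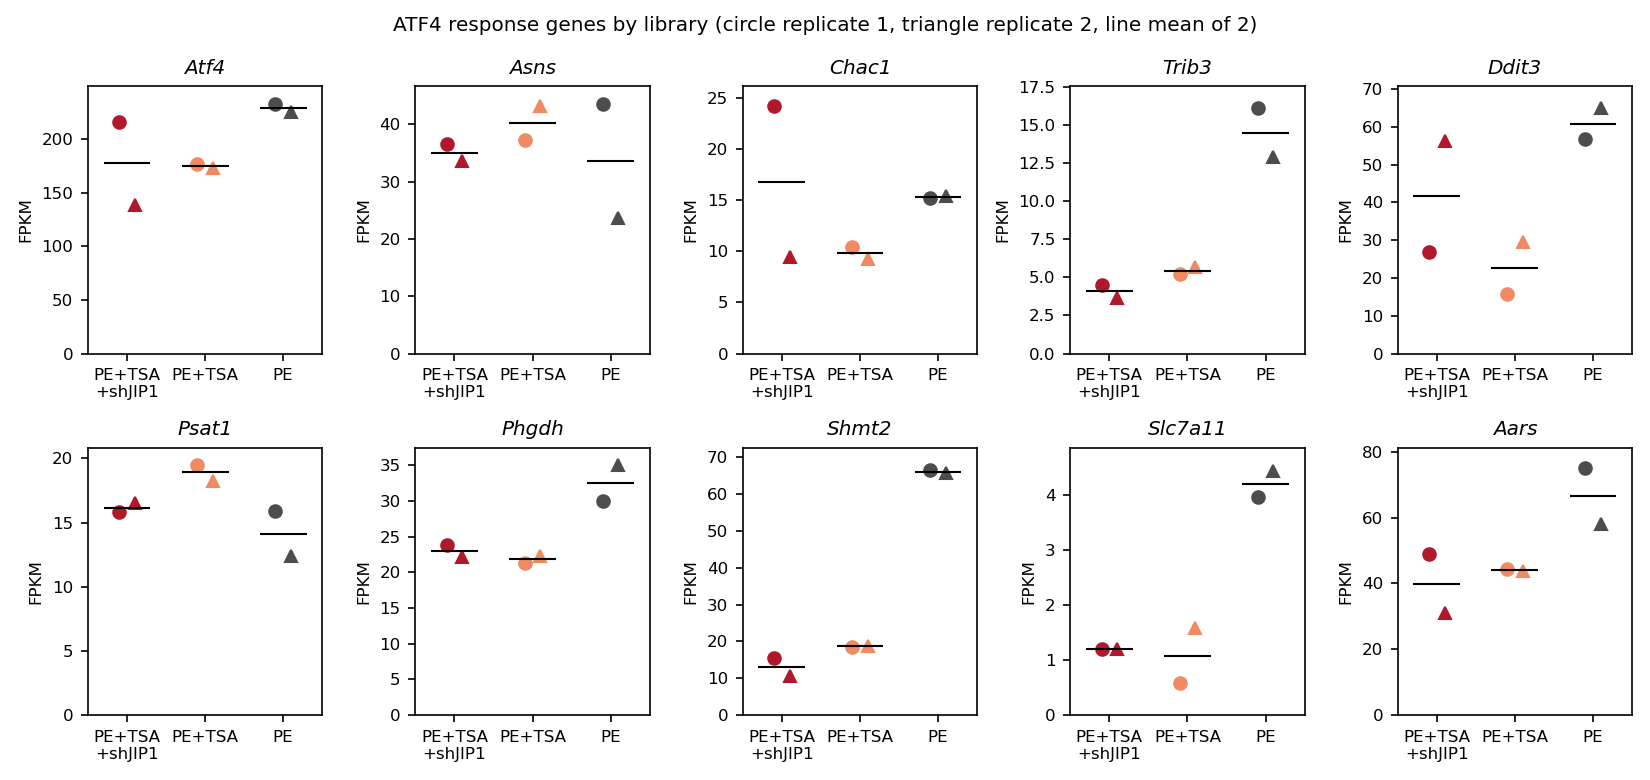
FPKM of the 10 genes in each library, with PE+TSA+shJIP1 at the left, PE+TSA in the middle and PE at the right of each panel; circles are replicate 1, triangles replicate 2 and lines the mean of 2, on axes that start at 0. Atf4, Trib3, Ddit3, Phgdh, Shmt2, Slc7a11 and Aars are lower in all 4 libraries with TSA than in both PE libraries. For Ddit3 the gap is small, with 56.2 FPKM in PE+TSA+shJIP1 replicate 2 against 56.7 FPKM in PE replicate 1. The share of all features with this pattern was not computed. Asns in both groups with TSA overlaps with PE.

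The effect of TSA was read from PE+TSA against PE. Of the 10 genes, 1 passed the threshold, Shmt2, which fell, and 9 did not pass. In the same comparison 84 of the 10359 features tested passed, 0.811%. All changes are differences of log2(FPKM + 1), so that changes of low genes are understated, and adjusted p-values are from limma over all features tested, with a threshold of 0.05. Both PE+TSA libraries lay below both PE libraries for 8 members (21.1% of all features tested) and above them for 1, Psat1 (29.5% of all features). The median change of the members was -0.58, against 0.10 for all features tested. Because the members were chosen with earlier results of these data known, no test of this difference is given. At an unadjusted p under 0.05 there were 5 members (Shmt2, Trib3, Ddit3, Slc7a11 and Phgdh) and 1938 features in all.

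Shmt2, Psat1 and Phgdh encode enzymes of serine and glycine metabolism. Shmt2, the mitochondrial serine hydroxymethyltransferase that turns serine into glycine and a one-carbon unit, was at 18.6 and 18.7 FPKM in PE+TSA, against 66.4 and 65.6 FPKM in PE. The replicates lay close together in both groups, and the mean with TSA was 28.3% of that without. The log2 change was -1.77 ± 0.23 (SE; adjusted p = 0.0386). That change was between -1.83 and -1.76 in the 15 alternative settings, but passed in 5 of them (adjusted p from 0.0344 to 0.355), and it did not pass when any 1 of the 6 libraries was left out. Phgdh, the dehydrogenase that opens the pathway from a glycolytic intermediate to serine, was at 21.3 and 22.3 FPKM in PE+TSA, against 30.0 and 35.0 FPKM in PE. Its groups did not overlap, with a change of -0.55 ± 0.20 (adjusted p = 0.221). Psat1, the aminotransferase of the next step, was at 19.5 and 18.2 FPKM in PE+TSA, against 15.9 and 12.4 FPKM in PE, with a change of 0.40 ± 0.22 (adjusted p = 0.385). It was the only member above PE in both PE+TSA libraries.

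The ratio of Shmt2 to Psat1 within a library, chosen for display after the values were seen, was 0.954 and 1.03 in PE+TSA, against 4.19 and 5.28 in PE. The ratio of Shmt2 to Phgdh was 0.877 and 0.839 in PE+TSA, against 2.21 and 1.87 in PE. Both ratios were lower in each PE+TSA library than in either PE library. Since the ratios were chosen for their difference, no test is given.

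Trib3, Ddit3 and Chac1 are the stress effectors of the set. Trib3, a pseudokinase that binds ATF4 and limits its activity, was at 5.21 and 5.66 FPKM in PE+TSA, against 16.1 and 12.9 FPKM in PE (change -1.26 ± 0.27, adjusted p = 0.103). Ddit3, the C/EBP-family factor CHOP, was at 15.7 and 29.5 FPKM in PE+TSA, against 56.7 and 65.0 FPKM in PE. Both PE+TSA libraries were lower, but they differed from each other 1.87-fold (change -1.45 ± 0.42, adjusted p = 0.162). Chac1, an enzyme that degrades glutathione, was at 10.4 and 9.27 FPKM in PE+TSA, against 15.2 and 15.4 FPKM in PE, with a change of -0.59 ± 0.42 (adjusted p = 0.477). None of these 3 passed, although the groups did not overlap for any of them.

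The regulator itself, its synthetase and transport members came next. Atf4 was at 177 and 173 FPKM in PE+TSA, against 233 and 225 FPKM in PE, and the 2 groups did not overlap (change -0.38 ± 0.25, adjusted p = 0.443). Aars, which charges the alanine tRNA, was at 44.3 and 43.8 FPKM in PE+TSA, against 75.2 and 57.9 FPKM in PE (change -0.57 ± 0.28, adjusted p = 0.327). Asns, which makes asparagine, was at 37.3 and 43.3 FPKM in PE+TSA, against 43.5 and 23.7 FPKM in PE. Its groups overlapped, and the change of 0.31 ± 0.31 (adjusted p = 0.605) became -0.11 without PE replicate 2. Slc7a11, the cystine and glutamate exchanger, was at 0.578 and 1.57 FPKM in PE+TSA, against 3.95 and 4.43 FPKM in PE. Its mean with TSA was 25.6% of that in PE, and the change on the log2(FPKM + 1) scale was -1.36 ± 0.40 (adjusted p = 0.163).

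**Figure D2:**
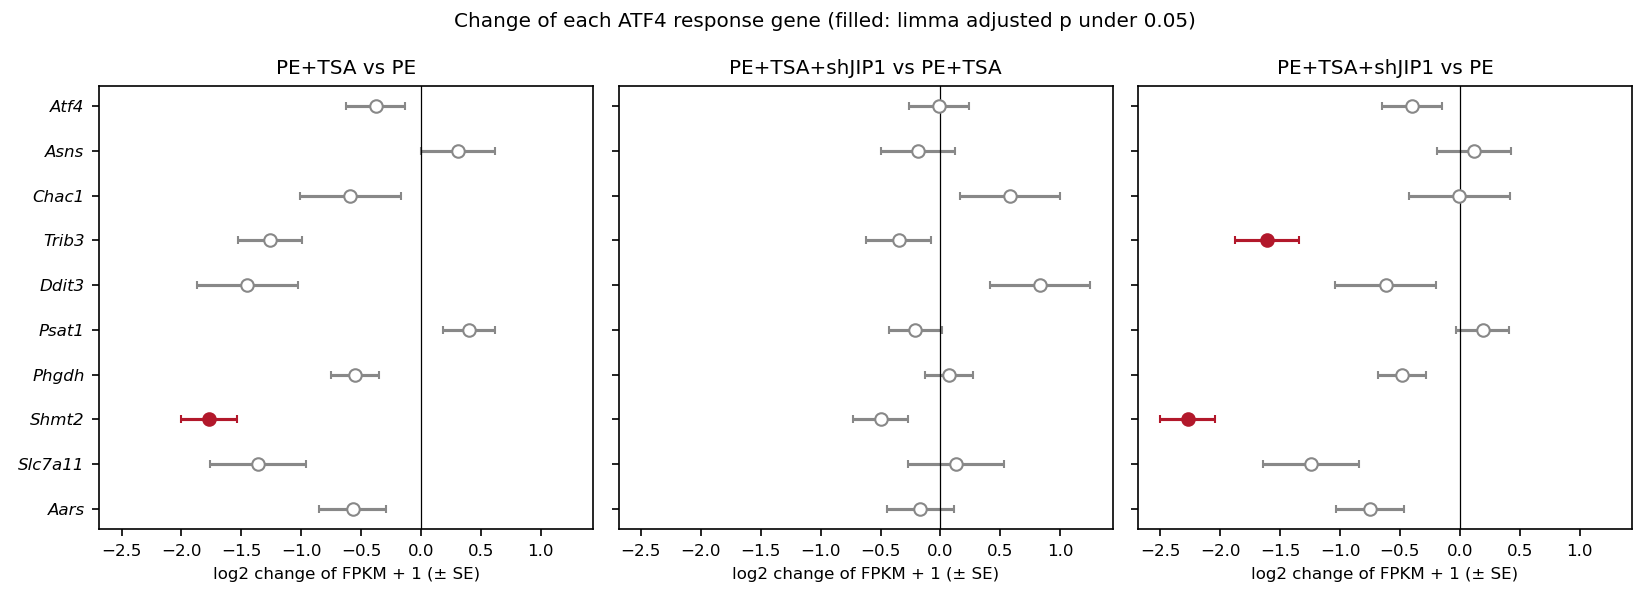
Log2 change of FPKM + 1 with its SE for the 10 genes in the 3 comparisons, from limma on all 6 libraries; filled red points passed an adjusted p of 0.05. Shmt2 is filled in both comparisons against PE, at -1.77 and -2.27, Trib3 in PE+TSA+shJIP1 against PE, at -1.61, and no gene is filled for PE+TSA+shJIP1 against PE+TSA.

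The effect of the JIP1 hairpin was read from PE+TSA+shJIP1 against PE+TSA, all with PE and TSA. None of the 10 members passed in limma, with 0 at an unadjusted p under 0.05 as well, and the smallest adjusted p was 0.389, for Shmt2. Of all features tested, 30 passed, 0.29%, and 1540 had an unadjusted p under 0.05. The median change of the members was -0.09, against -0.0031 for all features. Both hairpin libraries lay below both PE+TSA libraries for 4 members, Shmt2, Trib3, Asns and Psat1 (25.1% of all features), and above them for 0 (24.9% of all features). With 2 libraries a group, a missed threshold does not show that levels were equal.

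Shmt2 was at 15.5 and 10.7 FPKM in PE+TSA+shJIP1 and 18.6 and 18.7 FPKM in PE+TSA, a change of -0.50 ± 0.23. Trib3 was at 4.52 and 3.65 FPKM in PE+TSA+shJIP1 and 5.21 and 5.66 FPKM in PE+TSA (change -0.35 ± 0.27, adjusted p = 0.607). Both were thus lowest in the hairpin libraries. Psat1 was at 15.8 and 16.5 FPKM in PE+TSA+shJIP1 and 19.5 and 18.2 FPKM in PE+TSA (change -0.21 ± 0.22, adjusted p = 0.714). Asns was at 36.6 and 33.6 FPKM in PE+TSA+shJIP1 and 37.3 and 43.3 FPKM in PE+TSA (change -0.19 ± 0.31, adjusted p = 0.827).

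Of the stress effectors, Ddit3 and Chac1 differed between the hairpin libraries, whereas Trib3, given above, lay close in both. Ddit3 was at 27.0 FPKM in replicate 1 and 56.2 FPKM in replicate 2 of PE+TSA+shJIP1, a 2.08-fold gap, against 15.7 and 29.5 FPKM in PE+TSA (change 0.83 ± 0.42, adjusted p = 0.433). Chac1 ran the other way between these 2 libraries, at 24.2 and 9.42 FPKM in PE+TSA+shJIP1, against 10.4 and 9.27 FPKM in PE+TSA (change 0.58 ± 0.42, adjusted p = 0.576). Its gap of 2.57-fold was matched or exceeded by 4.67% of features between the same libraries, and that of Ddit3 by 7.65%. Without PE+TSA+shJIP1 replicate 1 the change of Chac1 was -0.05. Atf4 differed 1.56-fold between them, at 216 and 139 FPKM in PE+TSA+shJIP1, with 177 and 173 FPKM in PE+TSA (change -0.01 ± 0.25, adjusted p = 0.988). Aars was at 49.0 and 30.9 FPKM in PE+TSA+shJIP1 and 44.3 and 43.8 FPKM in PE+TSA (change -0.17 ± 0.28, adjusted p = 0.823). Atf4, Aars and Chac1 were all higher in replicate 1 of the hairpin group and Ddit3 was higher in replicate 2. The replicate order of Atf4, Aars and Ddit3 was the same in PE+TSA and in PE, and that of Chac1 in PE+TSA only.

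For Phgdh and Slc7a11 the libraries of these 2 groups overlapped. Phgdh was at 23.8 and 22.1 FPKM in PE+TSA+shJIP1 and 21.3 and 22.3 FPKM in PE+TSA (change 0.07 ± 0.20, adjusted p = 0.903). Slc7a11 was at 1.20 FPKM in both PE+TSA+shJIP1 libraries, between the 0.578 and 1.57 FPKM of the PE+TSA libraries (change 0.13 ± 0.40, adjusted p = 0.914).

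PE+TSA+shJIP1 was last set against PE, a comparison that shares its libraries with the other two comparisons. Here 2 of 10 members passed, Shmt2 and Trib3, both of which fell, while 8.27% of all features tested passed (857). The median change of the members was -0.55, against 0.10 for all features. Both hairpin libraries lay below both PE libraries for 7 members (26.7% of all features) and above them for 0 (33.9%).

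Shmt2 averaged 13.1 ± 3.41 FPKM in PE+TSA+shJIP1 and 66.0 ± 0.598 FPKM in PE (SD, n = 2 each), or 19.9% of the PE level (change -2.27 ± 0.23, limma adjusted p = 0.0127). It passed in 9 of 15 alternative settings (adjusted p from 0.00922 to 0.106), with a change between -2.52 and -2.02, and among the fits that left out 1 library only in the one without PE replicate 1. Trib3 averaged 4.08 ± 0.614 FPKM in PE+TSA+shJIP1 and 14.5 ± 2.24 FPKM in PE, or 28.1% (change -1.61 ± 0.27, limma adjusted p = 0.026). It passed in 8 of 15 settings (adjusted p from 0.0195 to 0.165) and in no fit that left out 1 library. Slc7a11 and Aars did not pass, at -1.24 ± 0.40 (adjusted p = 0.0997) and -0.75 ± 0.28 (adjusted p = 0.131). Nor did Ddit3 at -0.62 ± 0.42, Phgdh at -0.48 ± 0.20, Atf4 at -0.40 ± 0.25, Psat1 at 0.19 ± 0.22, Asns at 0.12 ± 0.31 and Chac1 at -0.0047 ± 0.42 (adjusted p from 0.167 to 0.997).

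Within the stress effectors, the ratio of Trib3 to Chac1 was 0.186 and 0.387 in PE+TSA+shJIP1, 0.501 and 0.611 in PE+TSA, against 1.06 and 0.841 in PE. The 3 groups did not overlap in that ratio. The ratio of Ddit3 to Atf4 was 0.125 and 0.404 in PE+TSA+shJIP1, 0.0888 and 0.17 in PE+TSA, against 0.243 and 0.29 in PE, so that the hairpin libraries spanned both other groups. The ratio of Shmt2 to Psat1 was 0.982 and 0.65 in PE+TSA+shJIP1. These pairs too were chosen after their values were seen and carry no test.

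**Figure D3:**
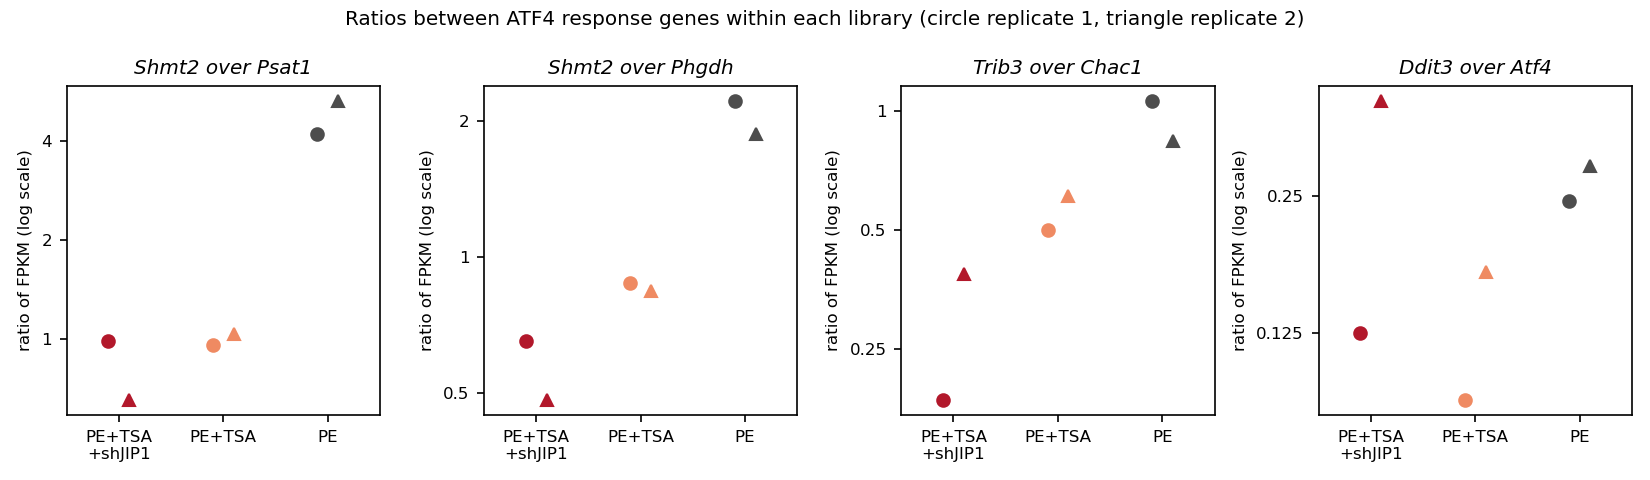
Ratio of FPKM between pairs of ATF4 response genes within each library, on a log axis, with PE+TSA+shJIP1, PE+TSA and PE from left to right (circles replicate 1, triangles replicate 2). Shmt2 over Psat1 is 0.65 to 1.03 in the 4 libraries with TSA and 4.19 to 5.28 in the PE libraries, while Ddit3 over Atf4 in the hairpin libraries, at 0.125 and 0.404, spans the other groups.

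Other genes of the pathway were taken from 5 lists of 63 symbols, of which 61 were found and 60 features were tested. The lists too were chosen with earlier results of these data known, so the shares below are a description without a test. With TSA, 0 of the 60 passed in limma. With the hairpin 2 passed (3.33%, beside 0.29% of all features), and in PE+TSA+shJIP1 against PE 8 passed, 2 up and 6 down (13.3%, beside 8.27% of all features). At an unadjusted p under 0.05 there were 15, 17 and 23 of them in the 3 comparisons (25%, 28.3% and 38.3%, beside 18.7%, 14.9% and 30.7% of all features). A fit without PE replicate 2, chosen as an alternative for these lists after seeing the data, leaves PE without replicates. Counts from it are therefore not given for the lists. The list calls were not followed through the other settings, so they are not shown to be firmer than those of Shmt2 and Trib3.

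Upstream of ATF4, none of 7 genes for eIF2 alpha, its kinases and its phosphatase subunits passed in any comparison in limma (1, 0 and 3 at an unadjusted p under 0.05 with TSA, with the hairpin and in PE+TSA+shJIP1 against PE, where the shares of all features were 18.7%, 14.9% and 30.7%), and their medians were -0.03, 0.14 and -0.03 in that order. Ppp1r15a, the inducible phosphatase subunit GADD34 that reverses the block and is itself an ATF4-pathway gene, was at 33.5 and 32.6 FPKM in PE+TSA+shJIP1, 28.7 and 32.7 FPKM in PE+TSA, and 50.4 and 47.1 FPKM in PE. All 4 libraries with TSA lay below PE for this gene (change with TSA -0.65 ± 0.19, adjusted p = 0.161). Its constitutive counterpart Ppp1r15b was at 30.8 and 24.7, 20.8 and 23.7, and 17.5 and 16.2 FPKM in these groups (change of PE+TSA+shJIP1 against PE 0.68 ± 0.22, adjusted p = 0.0987). Eif2s1, which encodes eIF2 alpha, had a change of 0.54 ± 0.20 in that comparison (adjusted p = 0.127). Eif2ak2, the kinase PKR, differed between the PE+TSA libraries, at 61.1 and 13.9 FPKM, and Eif2ak3, the kinase PERK, was at 4.04 to 8.23 FPKM in all 6 libraries.

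Of 12 stress regulators tested, 0 passed with TSA, and Atf3 and Eif4ebp1 passed with the hairpin (0.29% of all features). In PE+TSA+shJIP1 against PE 1 passed up and 3 down (8.27% of all features). In these 3 comparisons 4, 5 and 6 of the 12 had an unadjusted limma p under 0.05. The shares of all features were 18.7%, 14.9% and 30.7%. Atf3, a transcription factor that acts downstream of ATF4, was at 27.4 and 36.3 FPKM in PE+TSA+shJIP1, 2.01 and 1.99 FPKM in PE+TSA, and 4.69 and 3.11 FPKM in PE, and it rose against both (adjusted p = 0.0241 and 0.0143). Eif4ebp1, a translation repressor, fell to 44.9 and 45.8 FPKM in PE+TSA+shJIP1, against 153 and 144 FPKM in PE+TSA (change -1.69 ± 0.18, adjusted p = 0.0339) and 219 and 231 FPKM in PE (-2.29 ± 0.18, adjusted p = 0.0103). Against PE, Atf5 and Vldlr also fell. Atf5, a factor related to ATF4 and also controlled by upstream reading frames, was at 15.1 and 8.36 FPKM in PE+TSA+shJIP1, 21.2 and 15.6 FPKM in PE+TSA, and 62.2 and 59.3 FPKM in PE (change against PE -2.33 ± 0.32, adjusted p = 0.0175). Its change with TSA alone, -1.68 ± 0.32, did not pass (adjusted p = 0.0839). Vldlr, a lipoprotein receptor, was at 14.7 and 13.2 FPKM in PE+TSA+shJIP1, 14.5 and 14.3 FPKM in PE+TSA, and 26.9 and 28.3 FPKM in PE (change against PE -0.94 ± 0.20, adjusted p = 0.0449). Its change was -0.89 with TSA (adjusted p = 0.117) and -0.05 with the hairpin (adjusted p = 0.939). Ddit4, an inhibitor of mTORC1, was at 42.7 and 46.7 FPKM in PE+TSA+shJIP1 and 23.7 and 16.2 FPKM in PE+TSA (change 1.15 ± 0.30, adjusted p = 0.18). The list medians were -0.49, 0.02 and -0.37. Fgf21, a hormone gene of this pathway named after its values were seen, was below the filter, at 1.10 and 1.11 FPKM in PE+TSA+shJIP1, 0.149 and 0 FPKM in PE+TSA, and listed at 0 in both PE libraries. Cbs, of the enzyme list below and also named after its values were seen, was below the filter too. It was at 0.964 and 1.41 FPKM in PE+TSA+shJIP1, 0.244 and 0.509 FPKM in PE+TSA, and 0.218 and 0 FPKM in PE.

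Among 11 enzymes of amino acid and one-carbon metabolism tested, Pycr1 rose and Got1 fell in PE+TSA+shJIP1 against PE, and 0 passed with TSA or with the hairpin. With TSA, with the hairpin and against PE, 5, 5 and 4 of the 11 had an unadjusted limma p under 0.05. The shares of all features were 18.7%, 14.9% and 30.7%. The list medians were -0.65, -0.26 and -0.60 in that order. Pycr1, which makes proline, was at 52.3 and 64.7 FPKM in PE+TSA+shJIP1, 30.3 and 38.7 FPKM in PE+TSA, and 14.5 and 11.7 FPKM in PE, with no overlap between groups (change against PE 2.08 ± 0.24, adjusted p = 0.0143). Its level thus ran opposite to that of Shmt2 over the 3 groups. Got1, the cytosolic aspartate aminotransferase, was at 16.7 and 14.3 FPKM in PE+TSA+shJIP1, 50.6 and 39.8 FPKM in PE+TSA, and 84.8 and 67.3 FPKM in PE (change against PE -2.22 ± 0.23, adjusted p = 0.013). Mthfd2, the mitochondrial folate enzyme that takes up the one-carbon unit made by Shmt2, was at 8.28 and 5.73 FPKM in PE+TSA+shJIP1, 11.9 and 6.73 FPKM in PE+TSA, and 26.7 and 12.2 FPKM in PE (change against PE -1.28 ± 0.45, adjusted p = 0.118). Bcat1, a transaminase of branched-chain amino acids, was at a change of -0.93 ± 0.29 with TSA (adjusted p = 0.178), and Gpt2, an alanine transaminase, at one of -1.37 ± 0.39 with the hairpin (adjusted p = 0.201).

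Of 10 amino acid transporter features, Slc3a2 and Slc6a9 fell in PE+TSA+shJIP1 against PE, and 0 passed with TSA or with the hairpin. With TSA, with the hairpin and against PE, 3, 3 and 5 of the 10 had an unadjusted limma p under 0.05. The shares of all features were 18.7%, 14.9% and 30.7%. The list medians were -0.25, -0.42 and -0.52 in that order. Slc3a2, the heavy chain that carries Slc7a11 and Slc7a5 to the membrane, was at 34.3 and 29.9 FPKM in PE+TSA+shJIP1, 45.2 and 48.9 FPKM in PE+TSA, and 71.9 and 73.2 FPKM in PE (change against PE -1.16 ± 0.19, adjusted p = 0.0244). The groups did not overlap in any of the 3 comparisons. Slc6a9, a glycine transporter, was at 3.76 and 3.89 FPKM in PE+TSA+shJIP1, 5.72 and 6.38 FPKM in PE+TSA, and 11.5 and 11.2 FPKM in PE (change against PE -1.35 ± 0.25, adjusted p = 0.0323). Slc7a5, a large neutral amino acid transporter, had a change of -1.45 ± 0.35 (adjusted p = 0.0556) and Slc7a1, a cationic one, of -0.75 ± 0.23 (adjusted p = 0.0928) against PE. Slc38a2, a glutamine and alanine transporter, had a value of -0.68 ± 0.21 with the hairpin (adjusted p = 0.225).

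None of 20 genes of cytosolic tRNA charging, 19 synthetases and the tRNA exporter Xpot, passed in any comparison in limma. Their medians were 0.03, -0.09 and -0.02 with TSA, with the hairpin and against PE. In that order 2, 4 and 5 of the 20 had an unadjusted limma p under 0.05, beside 18.7%, 14.9% and 30.7% of all features. The smallest p-values belonged to Vars, Eprs and Xpot with TSA (changes -0.75, -0.49 and -0.59), to Eprs, Qars and Farsb with the hairpin (0.67, -0.55 and 0.57), and to Farsb, Vars and Wars in PE+TSA+shJIP1 against PE (0.86, -0.85 and -0.68). Aars, the member of this class, lay at -0.57 with TSA.

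**Figure D4:**
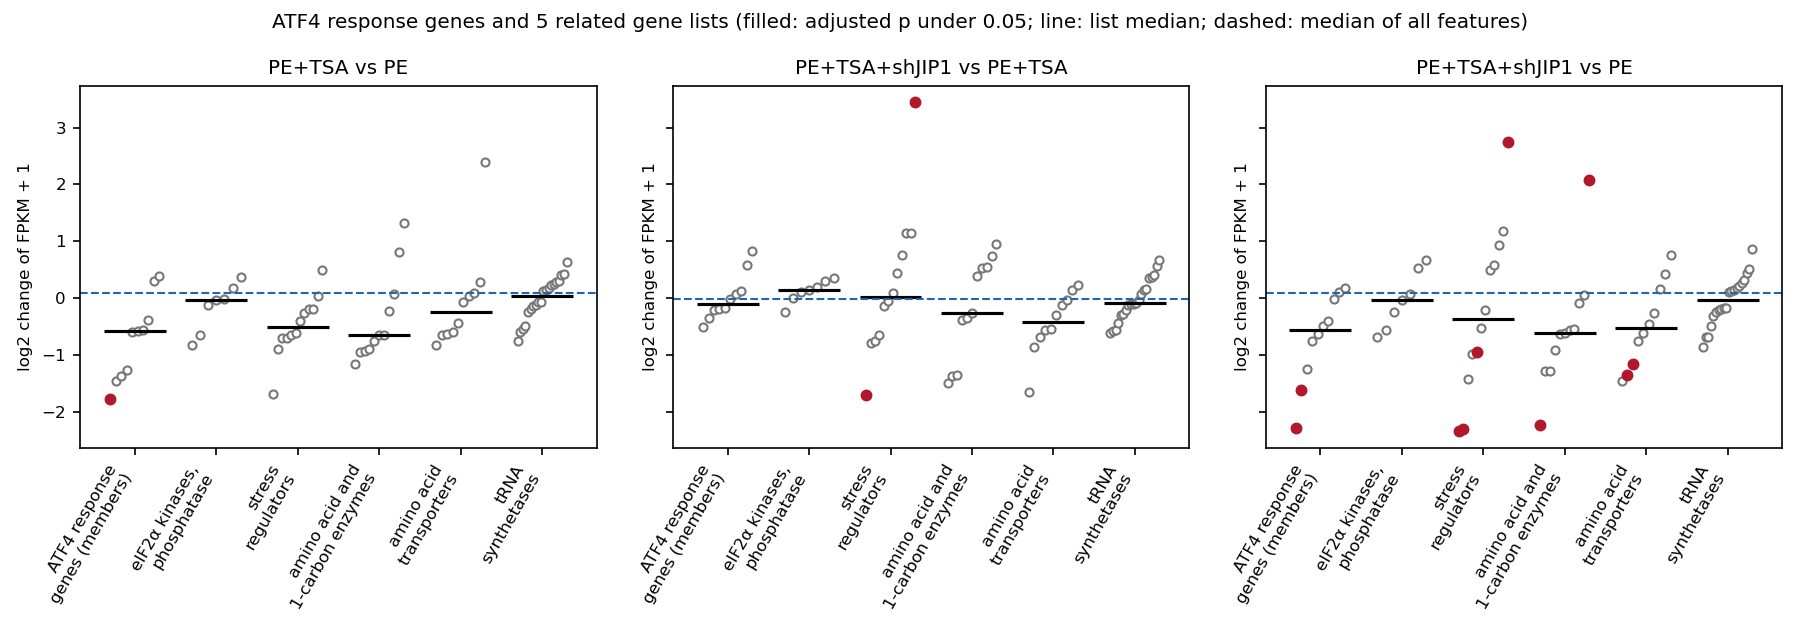
Log2 change of FPKM + 1 of the 10 ATF4 response genes and of 5 related lists in the 3 comparisons, a point per feature, with the median of each list as a black line and that of all features tested as a dashed line; filled red points passed an adjusted p of 0.05. The members' medians are -0.58, -0.09 and -0.55, and those of the tRNA synthetases 0.03, -0.09 and -0.02.

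Likeness to Atf4 was measured as Pearson's r of log2(FPKM + 1) over the 6 libraries among 7567 features that averaged 5 FPKM or more and had no 0, as a description only. The 5 features most like it were Lmbrd2 (0.986), Fam135a (0.982), Zfp105 (0.978), Bnip2 (0.971) and Odf2 (0.97). Of the members, Aars was the most similar (0.934, place 23). It was followed by Shmt2 (0.791, place 353), Chac1 (0.766, place 455), Trib3 (0.764, place 460) and Phgdh (0.734, place 579). Ddit3 (0.165), Asns (-0.12) and Psat1 (-0.524) ran differently over these libraries, and Slc7a11, below that minimum, was not ranked. The libraries of a group share their treatment, so these 6 points are not independent.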

How the data were processed

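Gene expression in 6 libraries was deposited by the authors as a table of FPKM values with a column per library and 13843 rows, whose header names no unit. Per the submitters' processing notes, Cufflinks was used and the build was rn6, with no version stated. Nothing used here gives the aligner, annotation, read filters or strand, so reads of a gene and of an overlapping one cannot be told apart. The members and gene lists were chosen with earlier results of these data known.

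Libraries were grouped by their titles. Values of log2(FPKM + 1) were fitted in R 4.3.3 by limma 3.58.1 on all 6 libraries, with a mean for each group and an intensity-dependent prior variance (degrees of freedom: 3 residual, 3.27 prior). P-values are two-sided, adjusted by Benjamini and Hochberg over the 10359 features that averaged 1 FPKM or more. Relative depth came from features below 0.3 FPKM (6 FPKM in PE replicate 2). The genes named were the members, Mapk8ip1, every list feature called, the 3 of each list with the smallest p in each comparison, and the 5 features most like Atf4. Fgf21 and Cbs fall outside that rule. The alternatives were 15 other settings. Tables and figures were made with pandas 2.3.3 and matplotlib 3.10.9.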

Additional observations from a re-analysis of the deposited data

How the results depend on the processing

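Counts depended on the fit. With TSA, the members called numbered 0, against 1, with no filter on low values, without a variance trend, with the replicate block and with only the 2 groups compared, and 0 to 0 with 1 library left out. In these settings the features called in all were 14, 36, 28 and 5, against 84, and 6 to 203 with 1 library left out. With the hairpin, 0 members were called in all settings, and the features called were 1, 2, 18 and 8, against 30, and 7 to 16 with 1 library left out. In PE+TSA+shJIP1 against PE, 0 members and 4 features were called with only the 2 groups compared, against 2 and 857. With 1 library left out these counts were 0 to 1 and 4 to 941, and 15 features were called without PE replicate 2. Fits without 1 library have fewer samples. The cause of the other shifts was not tested.

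The median change of the members with the hairpin was -0.09 and lay between -0.22 and 0.13 with 1 library left out, and the medians with TSA and against PE moved by less than the spread between replicates in every setting. Changes of single members that turned sign did so with 1 library left out. With TSA this was Asns (-0.11 to 0.74). With the hairpin these were Atf4 (-0.33 to 0.30), Chac1 (-0.05 to 1.22), Slc7a11 (-0.22 to 0.48) and Aars (-0.50 to 0.15), and against PE Asns (-0.30 to 0.55) and Chac1 (-0.64 to 0.63). No member changed direction under another pseudocount, filter or scaling.

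The replicate numbers pair no libraries by the labels. The replicate 1 minus 2 differences of the groups correlated across features at 0.0735 (PE and PE+TSA), 0.0396 (PE and PE+TSA+shJIP1) and 0.122 (PE+TSA and PE+TSA+shJIP1). With the replicate block, 28, 18 and 1063 features were called in the 3 comparisons. The shallow PE replicate 2 and 2 libraries a group limit every comparison.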
